A study of Caenorhabditis elegans with 24 samples.

Results

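Ribosome footprints were compared between noNSUN and wild-type (WT) Caenorhabditis elegans that had spent 4 h at 27 °C, a heat shock for worms raised at 20 °C. All libraries labelled as footprints at 27 °C entered the comparison, 3 of noNSUN and 3 of WT, which are 6 of the 24 libraries of the study. noNSUN is a quadruple mutant. It carries the CRISPR alleles mj473 of nsun-1, mj458 of nsun-2 and mj457 of nsun-4, each of which replaces a catalytic cysteine by alanine, and the deletion allele tm3898 of nsun-5. WT (N2) carries none of them. Populations of synchronised adults were taken from plates into liquid culture with Escherichia coli HB101 for the heat shock, harvested in cycloheximide and ground whole, so a library averages over all tissues of many animals. The study reports that noNSUN animals developed with a delay, stayed smaller as adults and had fewer viable progeny than WT. Effects of genotype and of stage, size or brood cannot be told apart in these libraries. The 6 libraries of both strains at 20 °C and the input RNA of the same lysates are given only beside the footprints at 27 °C.

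NSUN proteins place a methyl group on carbon 5 of cytosines in tRNA and rRNA. NSUN-2 methylates, among others, the wobble base of the leucine tRNA with the anticodon CAA, which reads the codon UUG. A footprint (ribosome-protected fragment, RPF) is the piece of mRNA that a ribosome shields from nuclease, so the number of footprints on a gene rises both with its mRNA and with the ribosomes on each mRNA. Heat shock in worms calls on cytosolic chaperones such as HSP90 and HSP70, which fold proteins with the help of co-chaperones.

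The noNSUN libraries held 162712, 396184 and 31776 in-frame footprints (replicates 1, 2 and 3), and the WT libraries 101435, 34100 and 22761. Levels are given as CPM, the footprints of a gene per 1000000 footprints on tested genes after scaling of the libraries by TMM (trimmed mean of M values). A floor of 3 counts was 24.9, 10.2 and 129 CPM in the noNSUN libraries and 40.3, 121 and 181 CPM in the WT libraries, which covers counting error only. Spearman correlations across genes were 0.795 to 0.867 between noNSUN replicates and 0.687 to 0.738 between WT replicates. Markers of adult intestine, muscle, oocytes and germ line were present in both strains. Of 14 sperm markers, 13 were at 0 in all 6 libraries. The share of footprints on 8 genes of the larval moult was 0.105%, 0.0871% and 0.101% in noNSUN, against 0.171%, 0.126% and 0.110% in WT, and its part in the results was not tested.

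The mutated genes were read first. nsun-1 had 19, 54 and 3 footprints in noNSUN and 15, 8 and 3 in WT, and nsun-2 had 24, 61 and 2 in noNSUN and 14, 6 and 2 in WT. A difference was not detectable at this depth, with log2 differences of -0.46 (SE 0.44) for nsun-1 and -0.01 (SE 0.47) for nsun-2, where SE is the standard error. For point mutations this was no check of the labels. nsun-4 and nsun-5 had too few footprints to be tested, at most 7 in a library.

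Of 20447 genes in the files, 1624 had enough footprints to be tested. The difference between noNSUN and WT was called for 1 of them (0.0616%) at an adjusted p under 0.05 in edgeR's quasi-likelihood test, the chaperone gene hsp-90, which fell in noNSUN. At an unadjusted p under 0.05 there were 120 genes (7.39%), 64 higher (3.94%) and 56 lower (3.45%) in noNSUN. The 3 noNSUN values lay wholly above the 3 WT values for 129 genes (7.94%) and wholly below them for 92 (5.67%). Over all tested genes 810 (49.9%) had a log2 difference above 0, the median difference was -0.0009 and the median of its absolute value was 0.26.

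The size of difference that could be seen depended on the level of a gene. In the 406 genes with the lowest levels, 26.3 to 221 CPM on average, the median standard error was 0.49 on the log2 scale, and in the 406 genes with the highest levels, from 594 CPM, it was 0.27. A difference of 1 on the log2 scale was exceeded, in either direction, by 57 genes, all but 1 of them without a call.

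**Figure D1:**
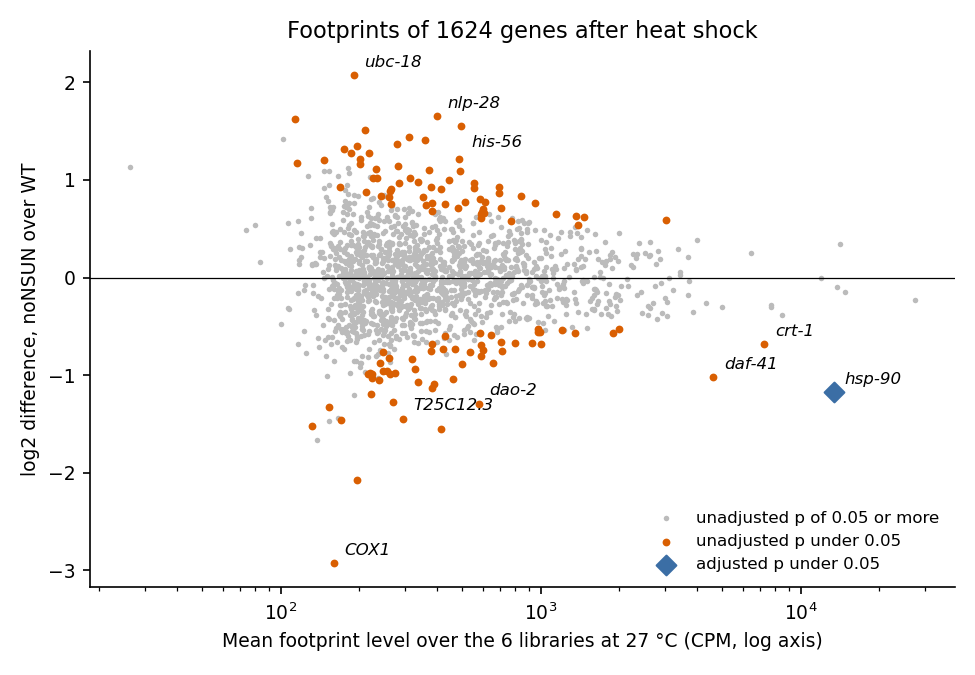
Each point is 1 of the 1624 tested genes, placed by its mean footprint level over the 6 libraries at 27 °C (CPM, log axis) and by its log2 difference between noNSUN and WT. hsp-90, the blue diamond and the only gene called, is also 1 of the most abundant genes, and the 120 genes at an unadjusted p under 0.05 (orange with the diamond) lie on both sides of 0.

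hsp-90 (WBGene00000915, chrV:14684918-14688545, plus strand, WBcel235) encodes the cytosolic HSP90 chaperone. It had 9777, 6678 and 8131 CPM in noNSUN replicates 1, 2 and 3, against 16261, 15867 and 23586 CPM in WT, from 1178, 1971 and 189 footprints in noNSUN and 1210, 394 and 391 in WT. Every noNSUN library lay below every WT library. The means were 8195 ± 1551 CPM in noNSUN and 18571 ± 4347 CPM in WT (SD, n = 3 each). The log2 difference was -1.18 (SE 0.23, 95% confidence interval -1.62 to -0.73, adjusted p = 0.0245), 2.26-fold lower in noNSUN. In whole animals, fewer cells that translate a gene and less translation in each cell cannot be told apart.

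The call for hsp-90 rested on few libraries. It was lost without noNSUN replicate 2 (adjusted p = 0.124), without noNSUN replicate 3 (0.174), without WT replicate 2 (0.0517) and without WT replicate 3 (0.166), while the log2 difference stayed between -1.33 and -0.99 when any 1 of the 6 libraries was left out. Over all 17 alternatives the adjusted p in edgeR or DESeq2 ranged from 9.73e-08 to 0.174, and 11 of them kept the call.

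The codon UUG stands at 9 of the 702 codons of hsp-90, 1.28%, against 2.02% over all coding sequences of the annotation. The counts per gene do not show at which codon a footprint lay. A few of these codons are printed because the tRNA that reads them carries the methyl group at its wobble base. Each line gives the codon in capitals (UUG, written TTG in DNA) with 9 bases on either side, 5′ to 3′, read from the WBcel235 genome. Below them stand both UUG codons of daf-41, the gene described next.
hsp-90 codon 17, chrV:14686203-14686223, plus strand: attgctcagTTGatgagcttg
hsp-90 codon 33, chrV:14686251-14686271, plus strand: gaaatctacTTGcgtgaattg
hsp-90 codon 64, chrV:14686391-14686411, plus strand: ggaaaggaaTTGttcatcaaa
hsp-90 codon 549, chrV:14687894-14687914, plus strand: aaggacattTTGgagaagaag
daf-41 codon 98, chrIII:5274320-5274340, minus strand: gtccattggTTGaaggttgac
daf-41 codon 131, chrIII:5274221-5274241, minus strand: ggattcgatTTGaaccagtac

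daf-41 (WBGene00022599, chromosome III) encodes the p23 co-chaperone, which binds HSP90 in its closed state. It had 3818, 2815 and 2409 CPM in noNSUN, against 6599, 5316 and 6756 CPM in WT. The groups did not overlap. In log2 terms daf-41 differed by -1.02 (SE 0.24), which was not called (adjusted p = 0.0817 in edgeR). DESeq2 called it (adjusted p = 0.0328), as did 6 of the 17 alternatives in all, whose adjusted p ranged from 0.000988 to 0.589. Per kilobase of coding sequence, daf-41 had 6089 CPM in noNSUN and 12573 CPM in WT, and hsp-90 had 3948 CPM in noNSUN and 8946 CPM in WT.

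Of the other 6 tested genes of the HSP90 machinery none passed the test, and 5 had a log2 difference above 0, or 4 with an offset for length and GC content and 3 with only replicates 2 and 3. cdc-37, which brings protein kinases to HSP90, had 1187, 1287 and 1119 CPM in noNSUN, against 1115, 805 and 784 CPM in WT. Its groups did not overlap, with a log2 difference of 0.36 (SE 0.24, adjusted p = 0.769 in edgeR). sti-1, the homologue of the HSP70 to HSP90 adaptor HOP, differed by 0.07 (SE 0.25) on the log2 scale. The immunophilins fkb-6 and cyn-7 differed by 0.11 (SE 0.24) and 0.03 (SE 0.24), the HSP90 activator ahsa-1 by 0.13 (SE 0.32) and the myosin chaperone unc-45 by -0.39 (SE 0.31).

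**Figure D2:**
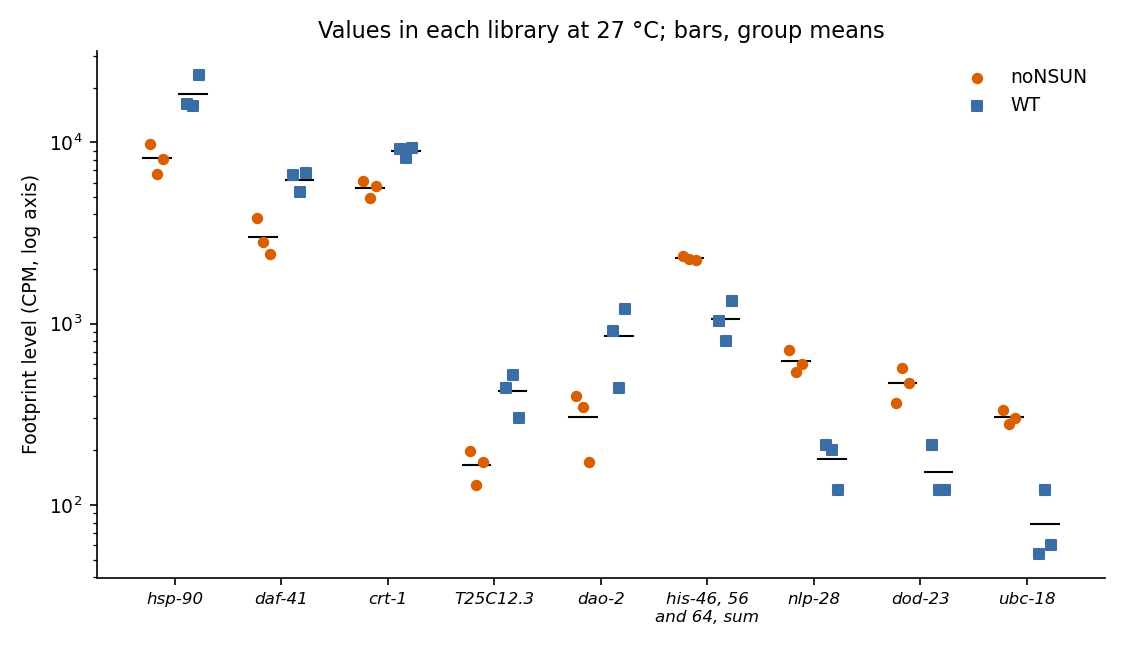
Footprint levels (CPM, log axis) in each of the 3 noNSUN libraries (orange circles, left of each pair) and the 3 WT libraries (blue squares, right) for 8 genes and for the sum of 3 near-identical histone genes; bars are group means. The 8 genes were taken from those whose groups do not overlap, which were 221 of all 1624 tested genes (13.6%), so the lack of overlap follows from this choice. The noNSUN values of hsp-90 lie at or below 9777 CPM and its WT values at or above 15867 CPM.

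None of the cytosolic HSP70 chaperones was called. hsp-1, the constitutive HSP70, had 13329, 10424 and 12089 CPM in noNSUN, against 11732, 11759 and 12607 CPM in WT, and its groups overlapped. Its log2 difference was -0.01, with a 95% confidence interval of -0.40 to 0.38. The 6 tested members of the HSP70 and HSP110 list had a log2 difference below 0 (median -0.24, against -0.0009 over all genes), of which 4 stayed below 0 with total counts and 4 with the offset for length and GC content. None passed the test or reached an unadjusted p under 0.05. The lowest was hip-1, an HSP70-interacting co-chaperone, at -0.52 (SE 0.27). The heat-inducible hsp-70 differed by -0.01 (SE 0.45). The inducible genes F44E5.4 and F44E5.5, which share their coding sequence, together had 1162, 444 and 688 CPM in noNSUN and 1156, 483 and 1327 CPM in WT, with a difference of -0.38 (SE 0.34) for their sum. In the count of 6 they stand as separate members.

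The small heat-shock proteins, which hold unfolded proteins, had overlapping footprint levels in both strains for 7 of 8 genes. Of the 8, 5 were above and 3 below 0 on the log2 scale, and the median was 0.26, or -0.08 when only replicates 2 and 3 were used. hsp-16.2, which had the only unadjusted p under 0.05 of the list, had 539, 451 and 344 CPM in noNSUN, against 874, 483 and 845 CPM in WT, with a difference of -0.69 (SE 0.33, adjusted p = 0.650 in edgeR). hsp-16.1 with its identical copy hsp-16.11 differed by 0.37 (SE 0.34) as a sum, and hsp-16.48 with hsp-16.49 by 0.16 (SE 0.32). sip-1, a small heat-shock protein of oocytes and embryos, differed by -0.05 (SE 0.27). The highest difference of the list was that of hsp-43 at 0.66 (SE 0.33), close in size to hsp-16.2 and opposite in sign. hsp-16.41 differed by 0.32 (SE 0.38).

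The chaperones of the endoplasmic reticulum were lower as a list. All 12 tested genes had a log2 difference below 0, between -0.85 and -0.25 with a median of -0.37, against 814 of all 1624 genes below 0. With only replicates 2 and 3, 9 of 10 tested genes were below 0 (median -0.30). With 1 library left out, pdi-3 reached 0.03. None was called, 2 of 12 had an unadjusted p under 0.05 (3.45% over all genes, in this direction) and for 3 of 12 every noNSUN library lay below every WT library (5.67% over all genes). The list held 1.65%, 1.54% and 1.41% of footprints in noNSUN, against 2.33%, 1.92% and 1.84% in WT, and 0.919%, 0.736% and 0.744% of the input RNA in noNSUN, against 1.00%, 0.796% and 0.821% in WT.

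crt-1, calreticulin, was the most abundant of them. It had 6100, 4923 and 5722 CPM in noNSUN, against 9219, 8215 and 9350 CPM in WT, with no overlap. This gave a log2 difference of -0.68 (SE 0.20, adjusted p = 0.284 in edgeR). The other pair without overlap, enpl-1, the HSP90 homologue of this compartment, at -0.53 (SE 0.25), and the J-domain protein dnj-7 at -0.85 (SE 0.45), were picked after their values were seen, and at 20 °C they stood at 0.32 and 0.55. The protein disulphide isomerases pdi-2 and pdi-3 differed by -0.39 (SE 0.23) and -0.35 (SE 0.23).

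The mitochondrial chaperones hsp-6 and hsp-60 stood slightly below WT in noNSUN. hsp-6, the mitochondrial HSP70, had 1477, 1315 and 1506 CPM in noNSUN, against 1734, 2054 and 1508 CPM in WT. hsp-60 had 2507, 2463 and 2022 CPM in noNSUN, against 2997, 2618 and 3197 CPM in WT. Neither pair of groups overlapped (5.67% over all genes, in this direction), though hsp-6 did so by a narrow margin. Neither gene passed the test, with log2 differences of -0.32 (SE 0.23) and -0.31 (SE 0.21). The groups overlapped for Y22D7AL.10, the last of the 3 tested genes of this list, at -0.28 (SE 0.44). The 8 subunits of the cytosolic chaperonin CCT lay between -0.54 and 0.26, and 9 J-domain proteins between -0.85 and 0.45, with no call.

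**Figure D3:**
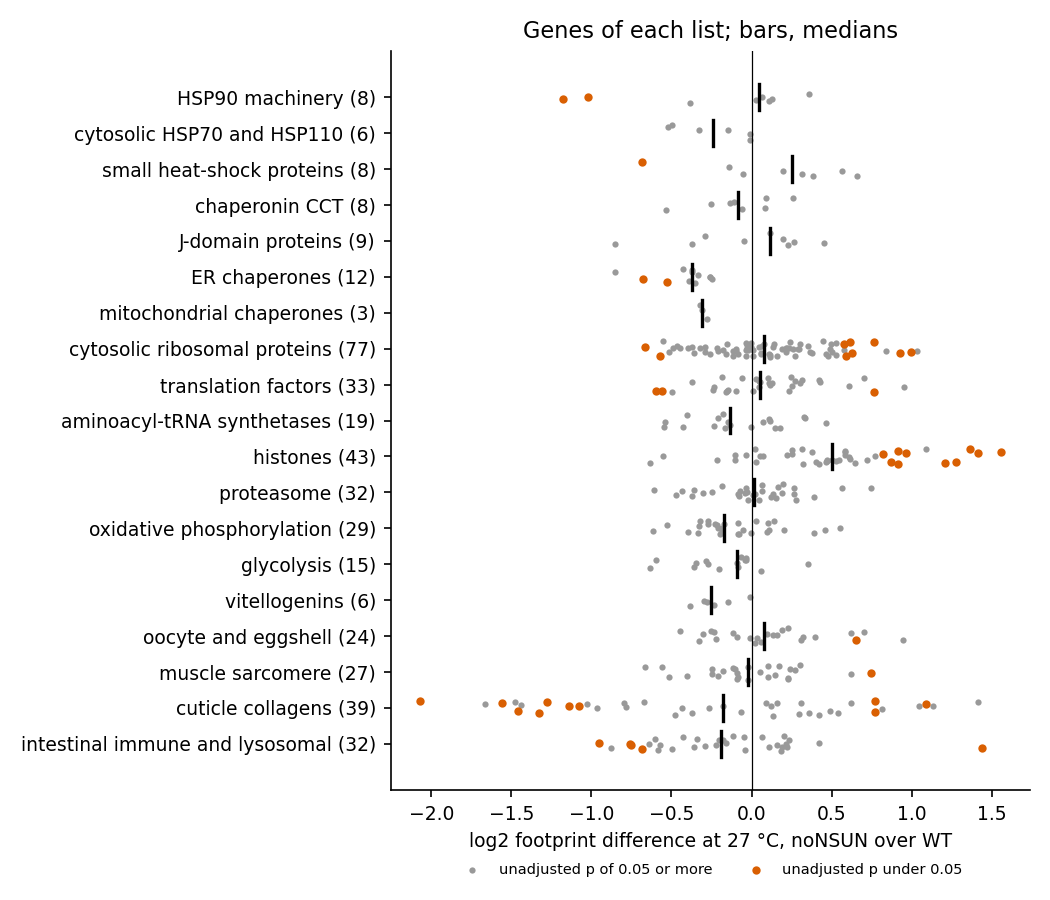
Log2 footprint difference between noNSUN and WT at 27 °C for each tested gene of 19 lists (number tested in brackets), with list medians as bars and genes at an unadjusted p under 0.05 in orange. The 12 chaperones of the endoplasmic reticulum all lie below 0 with a median of -0.37, and 37 of 43 histone genes lie above 0 with a median of 0.50.

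Histone genes, whose products package DNA, stood on the other side. Of 43 tested, 37 had a log2 difference above 0 and the median was 0.50, which became 0.33 with an offset for length and GC content and 0.32 with only replicates 2 and 3. None was called. An unadjusted p under 0.05 was reached by 10 genes, all higher in noNSUN (3.94% over all genes), and 11 were higher without overlap (7.94% over all genes). Histones held 1.30%, 1.31% and 1.45% of footprints in noNSUN, against 0.712% to 1.195% in the 3 WT libraries. In the input RNA the shares were 0.750%, 0.898% and 0.957% in noNSUN and 0.679%, 0.806% and 0.865% in WT, which overlapped. Only 24 of the 43 had enough RNA reads to be tested, so the RNA and footprint shares may not cover the same copies.

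These genes are copies of each other, and their counts cannot be taken gene by gene. Of the 43, 36 had fewer than 50% of their 28-base stretches to themselves among all coding sequences, and the median was 0%, against 100% over all tested genes. The coding sequences of the histone H4 genes his-56 and his-46, both on chromosome IV, are identical over 309 bases. The same 60 bases of each, bases 31 to 90 of the coding sequence, are printed to show that a footprint within them cannot be assigned to either. No base is in capitals because none differs.
his-56: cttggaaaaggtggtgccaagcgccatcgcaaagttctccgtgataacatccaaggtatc
his-46: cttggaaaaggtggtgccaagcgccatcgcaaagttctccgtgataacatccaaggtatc
The files list 94, 209 and 18 footprints for his-56 in noNSUN and 21, 6 and 3 in WT, and 109, 256 and 22 for his-46 in noNSUN and 40, 9 and 9 in WT. The log2 difference was 1.56 (SE 0.33, adjusted p = 0.0523 in edgeR) for his-56 and 0.87 (SE 0.28, adjusted p = 0.393) for his-46. No footprint that lies within the coding sequence can tell them apart, and the sequence beyond it was not compared. How reads that match several copies were placed is not given in the sources used here, which state unique alignment.

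Counts were therefore summed over genes that share at least 50% of their 28-base stretches, a step chosen after the data were seen. The histone H4 genes his-46, his-56 and his-64 together had 2374, 2270 and 2237 CPM in noNSUN, against 1035, 805 and 1327 CPM in WT. The noNSUN libraries lay close together and above all WT libraries. The sum differed by 1.15 on the log2 scale (SE 0.24) and was called (adjusted p = 0.0320 in edgeR), with hsp-90 the only other call of 1599 rows (0.125%). Its input RNA differed by 0.14 on the log2 scale, which was not called, and its footprints at 20 °C by 0.53 (adjusted p = 0.225). In RNA at 27 °C, his-56 had 0 to 1.03 CPM per library, whereas its identical copy his-46 had 132 to 212 CPM. RNA and footprints of these copies were thus not counted alike, and their 2 differences cannot be set against each other. No library was left out in turn from the summed counts.

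The other summed histone families were spread more widely, and none of them was called. Among further histone H4 genes, his-5, his-18, his-28 and his-50 together differed by 0.37 (SE 0.33). The H4 genes his-10, his-14 and his-26 differed by 0.68 (SE 0.30). The histone H2B genes his-11, his-15 and his-44 together had 1469, 1535 and 2151 CPM in noNSUN, against 672, 846 and 1267 CPM in WT, a difference of 0.95 (SE 0.27, adjusted p = 0.269). his-29 with his-34, also histone H2B, differed by 1.07 (SE 0.32, adjusted p = 0.341). The remaining H2B sums were lower, with his-4 and its near-identical copies at 0.37 (SE 0.32) and his-48 and its copies at 0.53 (SE 0.24). The H3 sums named by his-6, his-9 and his-45 differed by -0.16 (SE 0.41), 0.04 (SE 0.35) and 0.75 (SE 0.34). The histone H2A genes his-12, his-16 and his-43 differed by -0.02 (SE 0.32) and the H2A genes his-47, his-57 and his-65 by 0.16 (SE 0.30). Of 23 histone rows after summing, 20 were above 0, the median was 0.41, and 8 were higher at an unadjusted p under 0.05 (3.94% over all rows) with none lower.

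Outside these lists the genes with the lowest p among those without overlap were looked at on both sides, and none of them was called in edgeR with the settings used for the values. Alternatives called some of them, nlp-28 in 3 of 16, COX1 in 3 of 15, T25C12.3 in 2 of 16, and dod-23 and dao-2 in 1 of 17 each. The higher of them in noNSUN included a small peptide, a ubiquitin enzyme and a gene named for its place downstream of DAF-16. nlp-28, a peptide gene of the antimicrobial nlp cluster on chromosome V, had 714, 542 and 602 CPM in noNSUN, against 215, 201 and 121 CPM in WT. Its log2 difference was 1.65 (SE 0.38, adjusted p = 0.0817 in edgeR), with 23 footprints in all WT libraries.

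ubc-18, an E2 ubiquitin-conjugating enzyme, had 332, 281 and 301 CPM in noNSUN, against 53.8, 121 and 60.3 CPM in WT, from 4, 3 and 1 footprints in WT. As WT was near the floor of 3 counts, the ratio of summed counts was 4.29 with an exact 95% counting interval of 2.11 to 10.1, and the fitted log2 difference 2.07 (SE 0.55, adjusted p = 0.126). Its input RNA did not differ beyond its error (0.03, SE 0.16).

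dod-23, named for the FOXO factor DAF-16, had 365, 573 and 473 CPM in noNSUN, against 215, 121 and 121 CPM in WT, from 16, 3 and 2 footprints in WT. WT replicates 2 and 3 were thus at or below the floor of 3 counts. The ratio of summed counts was 2.8 with an exact 95% counting interval of 1.8 to 4.6. The fitted log2 difference of dod-23 was 1.44 (SE 0.36, adjusted p = 0.102 in edgeR). Its input RNA was called, at 154, 220 and 190 CPM in noNSUN and 64.6, 63.4 and 72.1 CPM in WT, which is 1.497 on the log2 scale (SE 0.22, adjusted p = 0.0394). For translation efficiency, which is footprints over RNA, the difference of dod-23 was -0.05 (SE 0.45).

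The remaining genes of this kind were ajm-1, a component of epithelial junctions, at 0.91 (SE 0.34), pfd-1, a subunit of the prefoldin chaperone that feeds CCT, at 1.14 (SE 0.44), D1086.10 at 1.099 (SE 0.40), pgm-3 at 1.31 (SE 0.49) and Y62H9A.4 at 1.63 (SE 0.61), all with an adjusted p of 0.645 in edgeR. In WT, pfd-1 and Y62H9A.4 had 20, 3 and 0 and 4, 2 and 0 footprints, so that 1 shallow library stood at 0 for both. pgm-3 had 9, 2 and 2 footprints in WT and D1086.10 had 21, 5 and 3, which is also near the floor. Without WT replicate 1 the difference of pfd-1 was 2.46, and without noNSUN replicate 2 that of pgm-3 was 0.52.

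On the lower side, T25C12.3 had 199, 129 and 172 CPM in noNSUN, against 443, 524 and 302 CPM in WT. The log2 difference was -1.45 (SE 0.37, adjusted p = 0.102 in edgeR). Its input RNA was called too, with 198, 148 and 169 CPM in noNSUN and 644, 448 and 459 CPM in WT, or -1.59 (SE 0.23, adjusted p = 0.0394). Translation efficiency of T25C12.3 differed by 0.10 (SE 0.45).

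dao-2, a gene first listed for higher expression in dauer larvae or ageing adults, had 398, 349 and 172 CPM in noNSUN, against 914, 443 and 1206 CPM in WT. The log2 difference was -1.29 (SE 0.33, adjusted p = 0.102), while its input RNA differed by 0.01 (SE 0.29). The calcium-binding calsequestrin csq-1 differed by -0.94 (SE 0.35), the kinase mnk-1, which phosphorylates initiation factor 4E in mammals, by -0.88 (SE 0.30), the junction protein afd-1 by -1.19 (SE 0.43), the CTP synthase ctps-1 by -0.76 (SE 0.28), ZK180.5 by -1.09 (SE 0.35) and F55F10.1 by -0.98 (SE 0.35).

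COX1, the mitochondrially encoded subunit 1 of cytochrome c oxidase, had the lowest log2 difference of all tested genes, but only 3, 9 and 1 footprints in noNSUN and 6, 12 and 5 in WT. The ratio of summed counts was 0.149, with an exact 95% counting interval of 0.0694 to 0.307. The fitted log2 difference was -2.93 (SE 0.81, adjusted p = 0.173 in edgeR), against 0.12 (SE 0.23) in input RNA. DESeq2 called it (adjusted p = 0.0483), and over 15 alternatives the adjusted p ranged from 0.0232 to 0.718. The difference was -1.76 with the offset for length and GC content, -2.15 without WT replicate 2 and -3.69 without WT replicate 1. COX1 was the only one of 12 mitochondrially encoded genes that could be tested. Together the 12 held 0.00430%, 0.00555% and 0.0315% of footprints in noNSUN, against 0.0168%, 0.0792% and 0.0395% in WT, and the groups overlapped. The study took footprints from the gradient fractions of single ribosomes (monosomes). Whether the COX1 footprints came from mitochondrial ribosomes was not tested, so they are not read as a measure of mitochondrial translation.

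No gene of the translation machinery was called. Of 77 cytosolic ribosomal protein genes 45 were above and 32 below 0 with a median of 0.08, which was -0.03 with an offset for length and GC content and -0.08 with only replicates 2 and 3. At an unadjusted p under 0.05, 7 were higher (3.94% over all genes) and 2 lower (3.45%). Ribosomal proteins held 6.27%, 6.17% and 6.80% of footprints in noNSUN, against 5.30%, 6.81% and 5.86% in WT, and the groups overlapped.

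rps-25 was the abundant ribosomal protein gene farthest from 0 among those named by rule. It had 4382, 2903 and 3571 CPM in noNSUN, against 1895, 3020 and 2413 CPM in WT, a log2 difference of 0.59 (SE 0.25, adjusted p = 0.645 in edgeR). Elongation factors 1A and 2, which deliver aminoacyl-tRNA and move the ribosome, were close, with eef-1A.1 at -0.10 (SE 0.20) and eef-2 at 0.25 (SE 0.19). Over 33 translation factors the median was 0.05, over 19 aminoacyl-tRNA synthetases -0.14, and over 16 nucleolar genes of ribosome assembly -0.12, with no call in any of them.

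Genes of single tissues gave no call either. The 6 vitellogenins, yolk proteins of the adult intestine, were below 0 (median -0.26), 5 of them also with total counts and with the offset, and overlapped widely, since vit-6 had 17430, 33039 and 25683 CPM in noNSUN and 23693, 34513 and 31488 CPM in WT. Among 32 lysosomal and immune genes, which largely act in the intestine, 11 were above and 21 below 0 (median -0.19), with 4 lower (3.45% over all genes) and 1 higher (3.94%) at an unadjusted p under 0.05. The cathepsin L protease cpl-1 was lower without overlap, at -0.29 (SE 0.22).

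The cuticle collagens were the widest list. Of 39 tested, 18 were above and 21 below 0, from -2.07 to 1.42, with 3 higher (3.94% over all genes) and 7 lower (3.45%) at an unadjusted p under 0.05. Members on both sides were picked after their values were seen. On the higher side, col-101 at 1.09 (SE 0.39) and col-140 at 0.77 (SE 0.35) were also above 0 in input RNA (1.07 and 0.74). On the lower side, rol-8 at -2.07 (SE 0.73) and dpy-5 at -1.56 (SE 0.65) were also below 0 in input RNA (-1.02 and -1.28) and in footprints at 20 °C (-2.15 and -3.31). Markers of the larval moult, given above, and of the adult hypodermis and cuticle both held a lower share of footprints in every noNSUN library than in every WT library. The share of the cuticle markers was 0.00738% to 0.00984% in noNSUN and 0.0117% to 0.0375% in WT, which is very few footprints in the shallow libraries. None of the 5 cuticle markers had enough footprints to be tested, and 2 were at 0 in all 6 libraries. The 2 marker lists share rol-6, so they are not separate observations. In input RNA the shares overlapped, at 0.0722% to 0.107% in noNSUN and 0.0734% to 0.114% in WT for the larval moult and 0.0124% to 0.0212% in noNSUN and 0.0144% to 0.0225% in WT for the cuticle. Their part in the collagen values was not tested.

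Among 24 oocyte and eggshell genes the median was 0.08 and among 27 sarcomere genes -0.02, with scaling by total counts 0.005. Of 32 proteasome subunits 17 were above and 15 below 0 (median 0.01, or -0.01 with DESeq2). Of 29 genes of oxidative phosphorylation 9 were above and 20 below 0 (median -0.17), and of 15 glycolytic genes 2 above and 13 below (median -0.09), none with an unadjusted p under 0.05.

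Footprints per gene were also read against the share of UUG among the codons of a gene, with tested genes split into 4 groups of about equal size. The median log2 difference was 0.04, -0.02, -0.01 and -0.01 from the group with the lowest share, up to 1.04% UUG, to the group with the highest share, from 2.22%. In 21 tested genes with UUG at 2 times its share over all coding sequences or more, 14 were above and 7 below 0, and the median was 0.08. The correlation across genes between the UUG share and the difference was -0.04 (Spearman, 1622 genes, which share libraries and are not independent).

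ife-1 and pat-10, 2 genes in which the study displays footprints along the coding sequence, were looked at by name. ife-1, a germline form of the cap-binding factor 4E, has 5 UUG codons among 231. It had 581, 512 and 344 CPM in noNSUN, against 309, 362 and 181 CPM in WT, so that the groups overlapped. The log2 difference was 0.77 (SE 0.33, adjusted p = 0.645 in edgeR). pat-10, muscle troponin C, has 2 UUG codons among 161, and its log2 difference was -0.09 (SE 0.24).

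Input RNA of the same lysates was set beside the footprints. Of 10815 genes tested in RNA at 27 °C, 3 were called (0.0277%), irg-5 and dod-23 higher (0.0185%) and T25C12.3 lower (0.00925%) in noNSUN. At an unadjusted p under 0.05 there were 306 (2.83%). irg-5, named as an infection response gene, had 132, 123 and 149 CPM of RNA in noNSUN, against 25.8, 19.1 and 27.3 CPM in WT, a log2 difference of 2.48 (SE 0.20, adjusted p = 0.000186). It had too few footprints to be tested, 16, 42 and 7 in noNSUN and 2, 2 and 1 in WT. Among RNA libraries at 27 °C, those numbered 1 moved alike, with a correlation of 0.57 between their deviations from the group means. Numbers 2 and 3 were not told apart, at 0.17 and 0.28 for equal numbers and 0.09 and 0.29 for unequal ones. A fit repeated with the number as a block called 23 genes, 18 higher and 5 lower. Without any 1 of the 6 RNA libraries at 27 °C, irg-5 alone was called, so dod-23 and T25C12.3 lost their calls, which both kept with the block. Across 1599 genes tested in both, the Spearman correlation between the footprint and the RNA difference was 0.21, a description over genes from the same lysates. hsp-90 RNA was at 3412, 2819 and 3362 CPM in noNSUN and 4154, 3477 and 4020 CPM in WT, with no overlap and lower in noNSUN. This was a log2 difference of -0.28 (SE 0.11, unadjusted p = 0.0266 in edgeR), which was not called in edgeR with or without the block. daf-41 RNA differed by 0.10 (SE 0.09).

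The difference between the footprint and the RNA change, the change in translation efficiency, was called for 0 of 1599 genes (0%) in edgeR, with 93 genes (5.82%) at an unadjusted p under 0.05, and for 1 gene, daf-41, in DESeq2. With a coefficient for each lysate, so that footprints and RNA of the same animals are paired, 3 genes were called, all lower in noNSUN. They were hsp-90 (-0.88, SE 0.20, adjusted p = 0.0316), daf-41 (-1.14, SE 0.23, adjusted p = 0.00635) and COX1 (-3.07, SE 0.62, adjusted p = 0.00635), the last from the few footprints given above. The origin of the COX1 footprints was not tested, so its call is not read as a fall in mitochondrial translation. Without the pairing hsp-90 stood at -0.89 (SE 0.26, adjusted p = 0.503) and daf-41 at -1.12 (SE 0.27, adjusted p = 0.216).

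**Figure D4:**
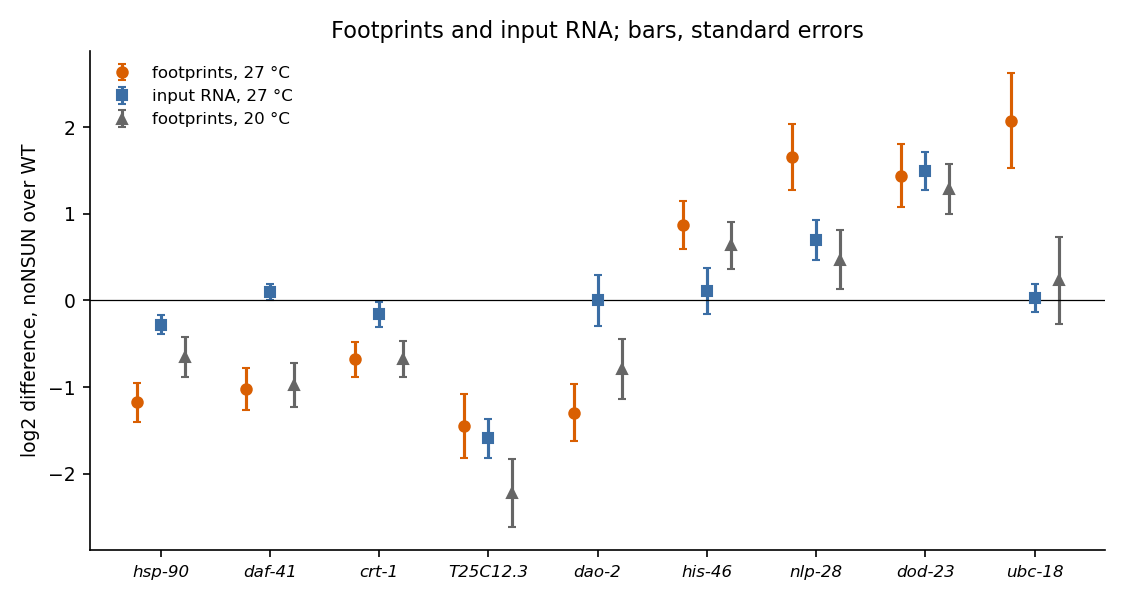
Log2 difference between noNSUN and WT for 9 genes in footprints at 27 °C (orange circles), in input RNA at 27 °C (blue squares) and in footprints at 20 °C (grey triangles), with standard errors. hsp-90, daf-41 and dao-2 lie lower in footprints than in RNA, whereas dod-23 and T25C12.3 lie at a like distance from 0 in both; his-46 shares its sequence with other copies.

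Footprints at 20 °C were read in libraries of their own. There, 28 of the 1624 genes were called (1.72%), 22 of them above WT in noNSUN (1.35%) and 6 of them below (0.369%). An unadjusted p under 0.05 was found for 275 genes (16.9%). No gene stayed called at 20 °C without WT replicate 2 or without noNSUN replicate 1. hsp-90 had 6060, 8381 and 7278 CPM in noNSUN at 20 °C, against 8486, 12462 and 13065 CPM in WT, which did not overlap, with a log2 difference of -0.65 (SE 0.23, adjusted p = 0.120). daf-41 was called at 20 °C, with 1447, 2199 and 2282 CPM in noNSUN and 2745, 5047 and 3538 CPM in WT, or -0.98 (SE 0.25, adjusted p = 0.0413). Among the 120 genes with an unadjusted p under 0.05 at 27 °C, the sign was shared with 20 °C for 98, against 981 of all 1624 genes.

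Whether the difference between the strains itself changed with temperature was tested as an interaction. It was called for 0 of 1624 genes (0%) in edgeR and for 0 in DESeq2, with 84 (5.17%) and 48 genes at an unadjusted p under 0.05. For hsp-90 the difference at 27 °C lay 0.52 below that at 20 °C on the log2 scale (interaction -0.52, SE 0.32, adjusted p = 0.845), and for daf-41 the interaction was -0.05 (SE 0.35). Among genes picked after their values were seen, the interaction was -1.65 (SE 0.47) for ZK180.5, -1.19 (SE 0.40) for hip-1 and -1.05 (SE 0.37) for sip-1. For ubc-18, with few WT footprints at 27 °C, it was 1.84 (SE 0.76). None of these passed the test. The ribosomal proteins, whose median log2 difference was 0.08 at 27 °C, stood at 0.53 at 20 °C, histones at 0.50 and 0.81, and the chaperones of the endoplasmic reticulum at -0.37 and -0.25.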

How the data were processed

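Ribosome profiling and input RNA libraries were analysed from 24 samples of both strains at 20 and 27 °C, in groups taken from the labels, with 3 biological replicates each. Per the labels and the study's methods, the authors trimmed reads with Trimmomatic 0.39, removed rRNA reads, aligned the rest to WBcel235 with HISAT2 2.1.0, kept unique alignments of footprint lengths with codon periodicity, and left out the first 10 codons of the longest coding sequence of each gene. The values deposited are raw counts, in-frame footprints for RPF and HTSeq counts for RNA, whose strand setting and annotation release are not given in the sources used here. Short or repeated sequences are therefore counted with less certainty, and 77 of 1622 tested genes had under 50% unique 28-base stretches.

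Counts were tested in R 4.3.3 with edgeR 4.0.16 (TMM, filterByExpr with a minimum count of 10 and minimum total of 15, quasi-likelihood F test, two-sided, Benjamini-Hochberg adjustment over all genes tested). The 12 RPF libraries were fitted together, as were the 12 RNA libraries, with group as the only factor, and translation efficiency was the interaction of assay and genotype over 24 libraries. A gene is called at an adjusted p under 0.05. Standard errors are the log2 difference divided by the square root of F. DESeq2 1.42.0 was an alternative. Library depth limited precision, and intervals from counts cover counting error only. The fits were also run on simulated counts with known differences. These had the same spread for every gene of an assay and no replicate or lysate effects, so that run does not test the calls given here.

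Coordinates are 1-based, from the Ensembl annotation of WBcel235. Of 20447 genes, 19629 were given a symbol. Genes named with values were, by rule, every gene called in footprints, RNA or translation efficiency at 27 °C and tested in footprints, the 12 higher and 12 lower non-overlapping genes of at least 100 CPM with the lowest p, the 3 most abundant members of each gene list with every tested HSP90, HSP70 and small heat-shock gene, and the nsun genes, ife-1 and pat-10. irg-5, called in RNA only, was added after its values were seen. Members, lists and tests were chosen with earlier results of these data known.

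The replicate numbers come from the titles. Same-numbered RPF libraries at 27 °C correlated in their deviations between -0.02 and 0.27, and RNA libraries between 0.17 and 0.57. Libraries of different numbers reached 0.09 in RPF and 0.29 in RNA. Footprints and RNA came from the same lysates, and low correlations in shallow RPF libraries cannot show that the numbers do not pair them. The fits with group as the only factor do not use the numbers.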

Additional observations from a re-analysis of the deposited data

How the results depend on the processing

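The direction of hsp-90 was the same in all 17 alternatives, between -1.43 and -0.93 on the log2 scale, and 6 of them lost the call: no filter on low counts (-0.93), an offset for length and GC content (-1.08), and 4 of the 6 that left out 1 library, over which the value ranged from -1.33 to -0.99. Of 101 named genes, 57 kept their sign in every alternative that gave a value, and no called gene changed sign.

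The number of genes called at 27 °C in footprints was 1, and 2 with total counts, 3 with no filter, 3 with DESeq2, 4 with only the 27 °C libraries, 0 with the offset, 6 with the replicate block and 6 with the offset and the block, 3 with only replicates 2 and 3, 2 with near-identical genes summed (the last 2 settings chosen after seeing the data), and 0 to 5 with 1 library left out (5 without noNSUN replicate 1, 2 without WT replicate 1, 0 without any of the others). daf-41 was among those called with DESeq2, the block and only replicates 2 and 3. The no-filter calls did not include hsp-90. Whether the replicate numbers pair the RPF libraries was not settled, so calls lost or gained under the block are given only as an alternative. At 20 °C, 28 genes became 9 with no filter, 15 with a minimum count of 30, 56 with the block, 6 with the offset, and 0 to 42 with 1 library left out (0 without WT replicate 2 or noNSUN replicate 1, 11 without WT replicate 3 or noNSUN replicate 2, 18 without noNSUN replicate 3, 42 without WT replicate 1). The interaction gave 7 calls with only replicates 2 and 3 and 0 to 1 with 1 library left out. RNA at 27 °C gave 6 calls with no filter, 8 with DESeq2, 23 with the block, 5 with only the 27 °C libraries, 72 with only replicates 2 and 3, and 1 with each library left out, against 3. Translation efficiency gave 1 with DESeq2, 3 with only replicates 2 and 3, 3 with the lysate block, and 0 with 1 library left out, against 0. The cause of these changes was not tested. The shallowest libraries, 22761 to 34100 footprints, limit what can be seen, with a median standard error of 0.49 in the 406 genes with the lowest levels. Scaling by total counts moved the median of all genes to 0.03.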
